A study of Homo sapiens with 6 samples.

Results

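Solitary CpGs are CpG dinucleotides of the autosomes that have no other CpG within 150 bp on either side. They were found among the 25715826 autosomal CpGs with at least 1 call in any library, with the cytosines of both strands of a CpG merged. In all, 1995316 CpGs (7.76% of those seen) met the rule, and the remaining 23720510 had a neighbour within 150 bp and served as the comparison. The nearest CpG lay at 150-300 bp for 1537045 solitary CpGs, at 300-500 bp for 373180 and at over 500 bp for 85091, where a range of distances leaves out its lower bound and holds its upper one. Isolation was set by position and used no methylation value. Since a CpG without a call does not count as a neighbour, the distances refer to CpGs seen, and 98.4% of the solitary CpGs were also without a neighbour within 150 bp in the GRCh37 reference.

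DNA methylation was read by whole-genome bisulfite sequencing in H9, an established line of human embryonic stem cells (hESC), as 3 conventional and 3 reset libraries. Conventional cells grew with 20% KSR (a serum replacement) and 10 ng/ml bFGF. Reset cells had passed through induction of NANOG and KLF2 transgenes with 1 μM DOX (doxycycline) and were then kept without DOX in t2iL+Gö, which holds the kinase inhibitors CHIR99021 (1 μM), PD0325901 (1 μM) and Gö6983 (5 μM) together with LIF. Both states were grown on mouse embryonic fibroblast feeders in 5% oxygen, and all 6 libraries come from 1 cell line. The study calls the libraries biological replicates, while the labels number them and do not say whether the numbers mark separate cultures or separate resettings, so p-values measure only the spread between these libraries. The libraries held between 67583776 and 93529658 calls at autosomal CpGs, or 2.53 to 3.496 calls per autosomal CpG of the reference, and levels are therefore pooled over many CpGs unless a CpG is named. A level is the percentage of calls that were methylated, and differences between levels are in percentage points.

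A CpG reads the same on both strands, so a methylated CpG becomes methylated on the old strand only each time the DNA is copied. The maintenance methyltransferase DNMT1, guided by UHRF1, restores the mark on the new strand, while DNMT3A and DNMT3B set it on unmarked DNA and TET enzymes oxidise it. Most CpGs outside CpG islands are methylated in somatic cells and in conventional hESC. Methylated cytosine mutates readily to thymine, and most of the genome is accordingly poor in CpGs, with long stretches that hold none. In dividing cells with incomplete maintenance, isolated CpGs flanked by A or T (written WCGW, where W is A or T) are known to lose methylation earlier than CpGs flanked by C or G (SCGS, where S is C or G).

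Single CpGs with calls in every library show what such positions look like. The sequences are GRCh37, plus strand, with 14 bases on each side of the CpG and with the CpG and its immediate flanking bases in capitals. Coordinates are those of the CpG. Shown first are the 5 solitary CpGs that rose most in reset cells. They were ranked among those with a called rise, no overlap between the groups and at most 30 calls in any library. A rise was rare, and some of the rises called may be false, as described below.
chr10:131756313-131756314: aaatcacatctgtGCGCtttctatgttaat
chr4:190554874-190554875: aggaaccaaccaaGCGGttagaaggttgga
chr7:70938034-70938035: atacattggctcaGCGTaaagaggcaggat
chr7:155169652-155169653: gtttccaaacacaACGTgtctggacaggaa
chr17:37845666-37845667: ctccaggagctgaCCGGaaatccagtgcta
The 2 CpGs below went from fully methylated to fully unmethylated and are shown for their many calls, the second level with another CpG in that number.
chr1:144895855-144895856: ggtgaaaatgtaaGCGTtatgcaaatataa
chr2:67244897-67244898: actaccaataataACGCcaaatttgacaac
In each window the CpG in capitals is the only CpG.

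At solitary CpGs the pooled level was 88.7%, 88.8% and 88.6% in the conventional libraries and 23.96%, 25.004% and 25.08% in the reset libraries. The groups did not overlap, and reset cells kept 27.8% of the conventional level (88.7% ± 0.0883 against 24.7% ± 0.626, SD, n = 3 each). The level fell by 64.0 points (two-sided exact permutation test, p = 0.1, the smallest p that 3 libraries against 3 can give, which holds for every pooled comparison below). CpGs with a neighbour within 150 bp stood at 84.0% ± 0.170 and 30.6% ± 0.399 and kept 36.4%. Solitary CpGs were thus 4.71 points above neighboured CpGs in conventional cells (SD 0.102) and 5.91 points below them in reset cells (difference -5.91, SD 0.244), a change of -10.6 (exact permutation test, p = 0.1). The direction of this change turned, to 1.71, against neighboured CpGs with at most 5 CpGs in the surrounding 1000 bp, a limit not set on the solitary CpGs, of which 819287 had more than 5. Solitary CpGs lay in sequence of lower GC content (median 37.1% against 49.5% within 100 bp on each side) and carried more calls each (4.98 against 3.39 in conventional and 3.64 against 2.79 in reset libraries). Among CpGs with at least 3 calls in every library the change was -5.24. Within bands of GC content below 50%, solitary CpGs were also the lower class in reset cells, at 22.7% ± 0.631 against 24.0% ± 0.601 for a GC content of 30-35% and 30.3% ± 0.695 against 34.7% ± 0.617 for 45-50%. At a GC content of 50% or more the libraries differed in sign, with solitary CpGs at 31.6%, 32.8% and 33.2% and neighboured CpGs at 32.1%, 31.96% and 32.2%. The levels of the forward and reverse strands of solitary CpGs differed by between -0.0732 and 0.0123 points in the 6 libraries. At the edge of the definition, CpGs whose nearest neighbour lay at 145-150 bp had a reset level of 26.6% ± 0.688 and those at 150-155 bp had 26.9% ± 0.624. In conventional cells these CpGs stood at 88.7% ± 0.0613 and 88.8% ± 0.0908. The spread of this step within libraries was not computed.

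The level in reset cells fell further with isolation. Solitary CpGs at 150-300 bp stood at 24.8%, 25.8% and 25.9% in the reset libraries (mean 25.5% ± 0.639), those at 300-500 bp at 21.6%, 22.7% and 22.7% (22.3% ± 0.602) and those at over 500 bp at 19.1%, 20.0% and 20.0% (19.7% ± 0.526). No library of a more isolated class reached a library of the class before it. In conventional cells the same classes differed by under 1 point, at 88.8% ± 0.0862, 88.5% ± 0.0909 and 88.0% ± 0.114. The CpGs over 500 bp from any other differed from those at 150-300 bp by -0.778 points in conventional cells (SD 0.0304) and by -5.82 points in reset cells (SD 0.114), and the change in this difference was -5.04 (exact permutation test, p = 0.1). Reset cells kept 28.8%, 25.2% and 22.4% of the conventional level in the 3 classes. The median GC content fell along the same classes from 37.1% to 35.6% and 35.2%. Distance is also tied to the local number of CpGs, described below, and their parts in this gradient were not separated.

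Solitary CpGs in gene bodies kept more methylation than those between genes. Of all solitary CpGs, 59.8% lay within a protein-coding or lncRNA gene. In reset libraries the gene body level was 25.5%, 26.5% and 26.6%, and the intergenic level 21.7%, 22.6% and 22.7%. In conventional cells the levels were 89.2% ± 0.0909 and 87.9% ± 0.0863. The difference between gene body and intergenic CpGs rose from 1.23 points (SD 0.0268) in conventional to 3.89 (SD 0.105) in reset cells, a change of 2.66 (exact permutation test, p = 0.1). It was present in each distance class, at 3.78 points for 150-300 bp, 3.96 for 300-500 bp and 3.40 for over 500 bp in reset cells. Within genes, exonic solitary CpGs stood at 30.1% ± 0.699 and intronic ones at 26.0% ± 0.655 in reset cells, whereas in conventional cells they were at 89.3% ± 0.139 and 89.2% ± 0.0877. Protein-coding genes had a reset level of 27.5% ± 0.669 and regions covered by a lncRNA gene alone 22.7% ± 0.601. Neighboured CpGs ran the other way in conventional cells, with gene bodies 1.52 points below intergenic sequence (difference -1.52, SD 0.0571), and gene bodies 2.37 points above it in reset cells (SD 0.158).

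**Figure D1:**
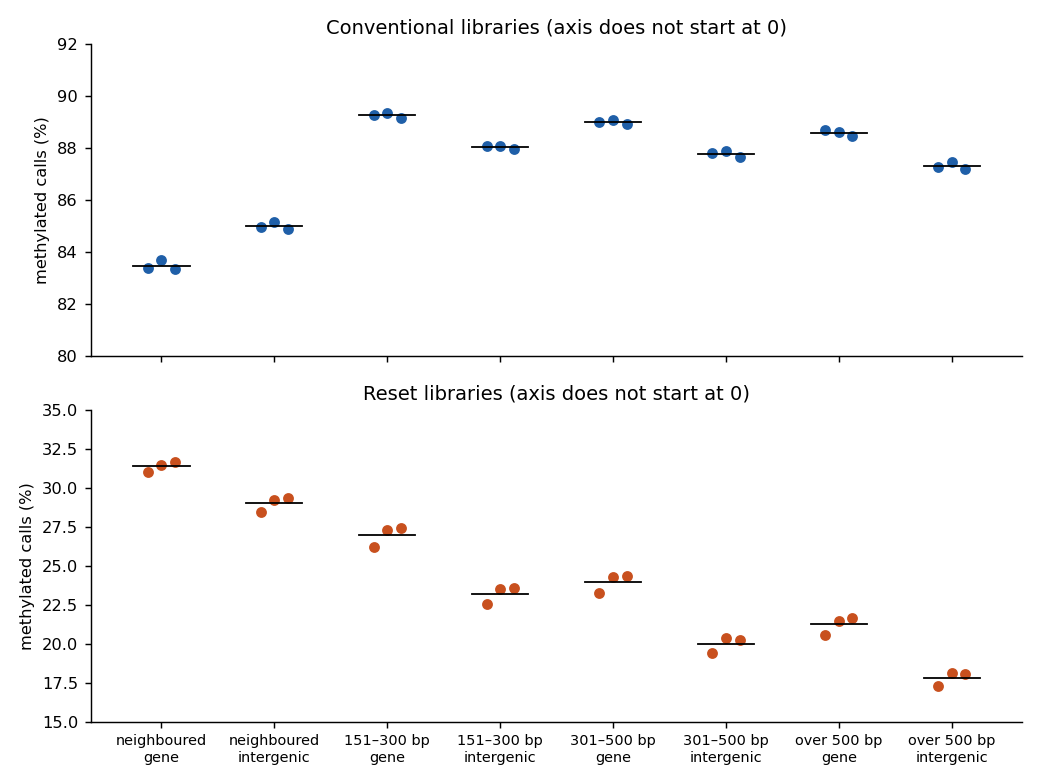
Methylation level (percentage of methylated calls) in each library, with conventional libraries above and reset libraries below, for neighboured CpGs and for solitary CpGs by distance to the nearest CpG, split into gene body and intergenic sequence. Points are libraries and bars their mean; in reset cells the level falls from 27.0% (150-300 bp, gene body) to 17.8% (over 500 bp, intergenic), while all solitary classes of conventional cells lie between 87.3% and 89.3%.

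Solitary and neighboured CpGs with the same local number of CpGs lay close together. For this comparison each CpG was placed by the count of CpGs, itself included, in the 1000 bp around it. Where 2 CpGs lay in 1000 bp, solitary CpGs stood at 20.5% ± 0.584 and neighboured CpGs at 20.5% ± 0.618 in reset cells. At 5 CpGs the levels were 23.9% ± 0.580 and 24.2% ± 0.640, at 10 CpGs 31.0% ± 0.665 and 31.9% ± 0.696, and at 15 CpGs 34.3% ± 0.499 and 36.3% ± 0.574. Within the reset libraries solitary minus neighboured CpGs came to -0.0337 points at 2 CpGs per 1000 bp (SD 0.0594) and to -2.06 at 15 (SD 0.0818). The change in this difference between the states was 0.0957 at 2 CpGs (exact permutation test, p = 0.2), -0.0490 at 5 (exact p = 0.4), -0.604 at 10 (exact p = 0.1) and -2.06 at 15 (exact p = 0.1). In conventional cells both classes stayed between 88.5% and 89.4% at all of these densities. Set against neighboured CpGs that had at most 5 CpGs in 1000 bp, solitary CpGs as a whole were 0.210 points lower in conventional (difference -0.210, SD 0.0162) and 1.505 points higher in reset cells (SD 0.0365), which gives the change of 1.71 named above. Solitary CpGs alone in their 1000 bp had a reset level of 19.6% ± 0.536, and those with more than 5 CpGs there had 28.7% ± 0.673. The 74364 CpGs alone are by definition over 500 bp from any other and make up most of the 85091 in that distance class.

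**Figure D2:**
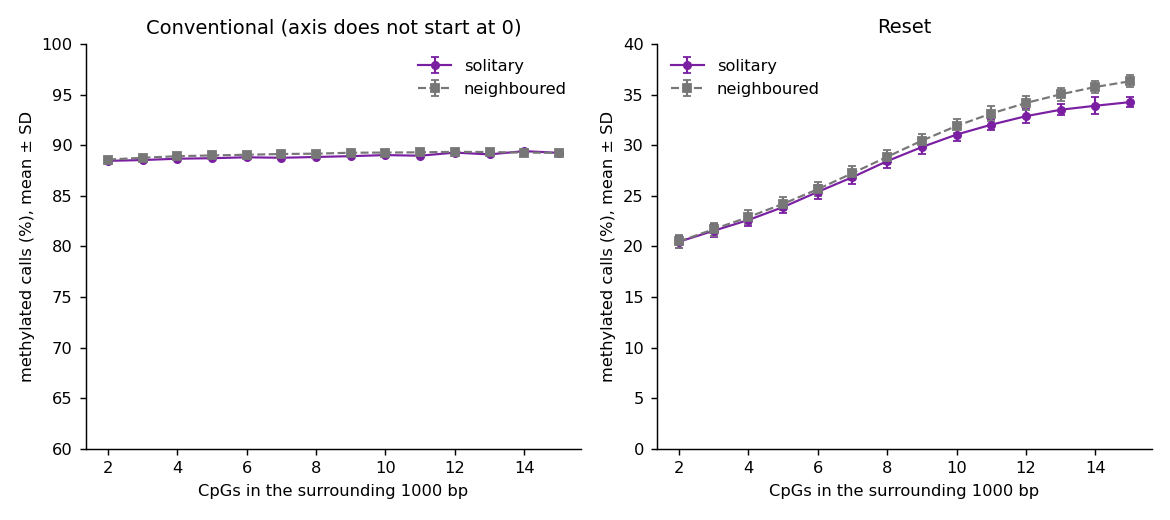
Mean level ± SD (n = 3 libraries) of solitary and neighboured CpGs that have the same number of CpGs in the surrounding 1000 bp, in conventional (left) and reset (right) libraries. The reset level of solitary CpGs climbs from 20.5% at 2 CpGs to 34.3% at 15, and the neighboured CpGs run alongside and end 2.06 points higher, at 36.3%.

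In finer steps of distance the conventional level of solitary CpGs rose and fell. In bins of 20 bp it was 89.3% ± 0.0728 at 180-200 bp, 88.0% ± 0.128 at 260-280 bp, 88.7% ± 0.0942 at 340-360 bp, 87.8% ± 0.171 at 460-480 bp and 88.7% ± 0.215 at 540-560 bp. These bins were picked after their values had been seen, and the steps are given as a description with no test. The level at 180-200 bp exceeded that at 260-280 bp by 1.29, 1.23 and 1.34 points in the conventional libraries, and it did so in all 3 libraries on each of the 22 autosomes, with means of 0.811 to 4.61 points and a lowest library at 0.356. The level at 340-360 bp exceeded that at 460-480 bp by 0.911 points (SD 0.0814), with a positive mean on 18 of the 22 autosomes and a positive value in all 3 libraries on 15. At SCGS sites this second step was 0.155 points (SD 0.236), with 1 library below 0. The rise from 460-480 to 540-560 bp was 0.830 points (SD 0.256). The 180-200 bp to 260-280 bp step was 1.55 points (SD 0.0698) at WCGW sites and 0.310 points (SD 0.0616) at SCGS sites. It was 1.45 points (SD 0.158) among CpGs with 1 to 3 CpGs in 1000 bp and 1.30 points (SD 0.0581) without CpGs of more than 30 calls in any library. In reset cells the same step was 3.32 points (SD 0.0926) and the level stayed between 22.7% and 23.1% from 260 to 380 bp before it fell to 20.7% ± 0.371 at 460-480 bp. In reset cells with 1 to 3 CpGs in 1000 bp the step was 1.38 points (SD 0.108).

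**Figure D3:**
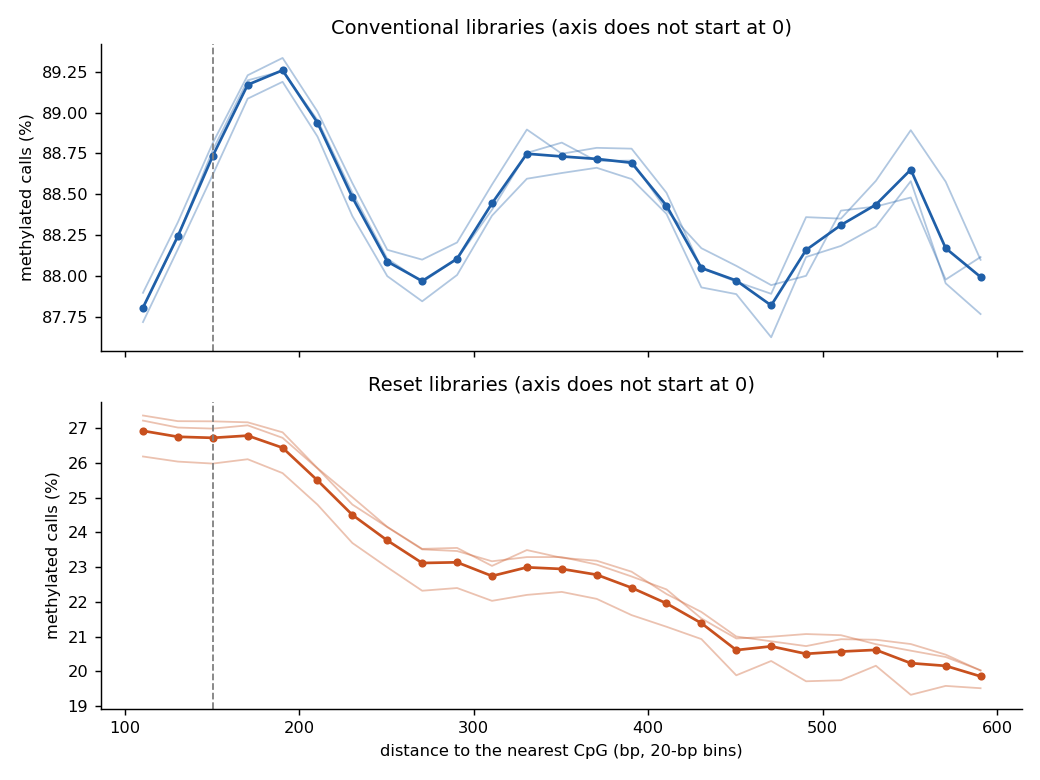
Level of CpGs by distance to the nearest CpG in 20-bp bins, for conventional (above) and reset (below) libraries; thin lines are libraries, points their mean, and the dashed line marks 150 bp, where solitary CpGs begin. The conventional level has peaks of 89.3%, 88.7% and 88.7% at 180-200, 320-340 and 540-560 bp, and the reset level goes down in steps from 26.4% at 180-200 bp to 20.2% at 540-560 bp.

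The level in reset cells also went with the bases beside the CpG. Solitary CpGs were richer in the WCGW context (40.6% against 22.9% of neighboured CpGs) and poorer in SCGS (13.8% against 29.8%). Solitary WCGW sites stood at 20.7%, 21.7% and 21.7% in the reset libraries and SCGS sites at 29.3%, 30.3% and 30.6%, with mixed contexts between them at 26.2% ± 0.657. In conventional cells the levels were 87.3% ± 0.112 for WCGW and 90.4% ± 0.0535 for SCGS. The difference between WCGW and SCGS changed from -3.17 points (SD 0.0582) to -8.71 (SD 0.111), a change of -5.54 (exact permutation test, p = 0.1). At neighboured CpGs the same difference went from 5.37 (SD 0.136) to -6.95 (SD 0.491), a change of -12.3 (exact permutation test, p = 0.1). Solitary minus neighboured CpGs changed by -6.72 points within WCGW and by -13.5 within SCGS (exact permutation test, p = 0.1 for each). The neighboured CpGs here were of any local density, and WCGW and SCGS were not compared with those in sparse sequence alone. Within WCGW the difference was 1.99 points (SD 0.0259) in conventional and -4.73 (SD 0.0704) in reset cells. Within SCGS it was 10.5 (SD 0.198) and -2.97 (SD 0.593), so in reset cells the difference was larger at WCGW. Solitary and neighboured sites kept 24.5% and 30.6% of the conventional level at WCGW, and 33.3% and 41.4% at SCGS. Combining context, distance and location widened the range. Intergenic WCGW sites over 500 bp from any other CpG had the lowest reset level of the combinations examined, 15.4% ± 0.403, from a conventional level of 85.8% ± 0.127. Gene body SCGS sites at 150-300 bp had 32.4% ± 0.712 from 90.8% ± 0.0547.

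Contexts of 6 bases, with both bases on each side of the CpG, spread the reset levels further. Of 136 such contexts (a context and its reverse complement counted once), 120 had at least 1000 solitary CpGs, and their reset levels ran from 9.16% to 38.9%, against 81.0% to 92.3% in conventional cells. The palindrome AACGTT was lowest in both states. Its 27242 solitary CpGs stood at 81.0%, 81.3% and 80.8% in the conventional libraries and at 8.83%, 9.29% and 9.36% in the reset libraries, so that 11.3% of the conventional level remained. All other solitary CpGs stood at 88.8% ± 0.0865 and 24.9% ± 0.631. AACGTT was picked after its values had been seen. It was 7.79 points below the other solitary CpGs in conventional (difference -7.79, SD 0.156) and 15.8 points below them in reset cells (difference -15.8, SD 0.347). It was low in gene bodies (9.99% ± 0.317) and between genes (7.88% ± 0.225), and at 150-300 bp (9.53% ± 0.318) as well as over 500 bp (7.78% ± 0.561). The contexts next in order were AACGAC at 12.6% ± 0.322, AACGAT at 13.6% ± 0.443, AACGTG at 15.3% ± 0.421 and AACGTC at 15.4% ± 0.748, all of which begin with AACG. At the other end stood TACGCA at 38.9% ± 0.817, TGCGCA at 38.7% ± 0.731 and TACGTA at 38.0% ± 0.809. AACGTT and TACGTA share the inner bases ACGT and differ at the outer base on each side, yet their reset levels were 9.16% and 38.0%, with conventional levels of 81.0% and 89.7%. Neighboured CpGs in sparse sequence had much the same order of contexts. Neighboured CpGs with at most 5 CpGs in 1000 bp had a reset level of 8.38% ± 0.354 at AACGTT and 36.4% ± 0.801 at TACGCA, and Spearman's rho between the reset levels of solitary and these neighboured CpGs over the 120 contexts was 0.997 (a description across contexts read in the same libraries).

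**Figure D4:**
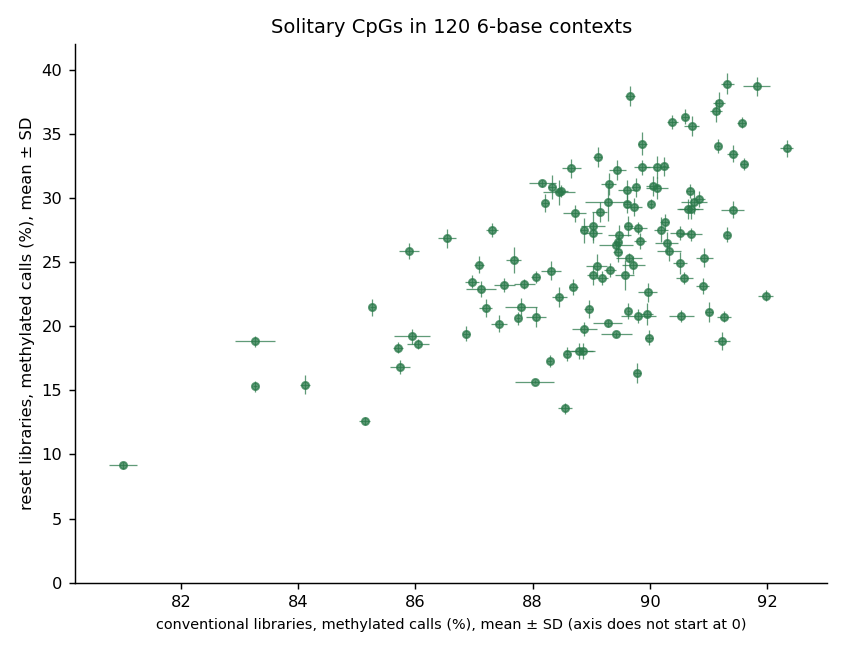
Each point is 1 of the 120 contexts of 6 bases at solitary CpGs, with its mean level in conventional libraries on the x axis and in reset libraries on the y axis (bars are SD, n = 3). Conventional levels span 81.0% to 92.3% and reset levels 9.16% to 38.9%, and the point at the lower left is lowest in both.

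The mean solitary level was below the mean neighboured level in reset cells on all 22 autosomes, but on chromosome 19 (31.4% against 31.5%) solitary CpGs were the higher class in 2 of 3 libraries. Chromosome 4 was lowest at 23.1% ± 0.613 and chromosome 19 highest at 31.4% ± 0.781. On chromosome 19 the solitary level in conventional cells was also the lowest of all, 80.7% ± 0.218. In 1-Mb bins of the genome (2705 with at least 200 solitary and 200 neighboured calls in every library), the solitary level fell in every bin, which is 100% of bins tested (limma with Benjamini-Hochberg adjustment at 0.05). The conventional level had its 10th and 90th percentiles at 86.6% and 90.7%, and the reset level at 14.7% and 35.8%. Bins poor in CpGs stood lowest in reset cells. When bins were split into 5 equal groups by their number of CpGs, the mean solitary level rose from 18.0% ± 0.546 in the poorest to 33.0% ± 0.645 in the richest, while conventional levels were 87.8% ± 0.111 and 87.7% ± 0.0726. Spearman's rho of the reset level with the number of CpGs was 0.704 and with the neighboured level of the same bin 0.917 (descriptions over 2705 bins read in the same libraries). The lowest bin, chr14:107000001-108000000, was at 6.04% ± 0.836 from a conventional level of 61.5% ± 2.11. This bin is cut short by the chromosome end at 107349540 and held 203 solitary CpGs. Low bins with conventional levels near those of the whole genome included chr6:62000001-63000000 at 8.19% ± 0.0952. Another was chr1:190000001-191000000, whose only protein-coding gene is BRINP3, at 8.28% ± 0.106. The highest bins were chr19:2000001-3000000 at 44.4% ± 2.63 and chr9:140000001-141000000 at 42.04% ± 1.62, each with 33 protein-coding genes. They held only 76 and 161 solitary CpGs. The next bin, chr19:38000001-39000000, held 321 and stood at 41.4% ± 0.845. The bin chr1:152000001-153000000, which holds the epidermal differentiation genes FLG (filaggrin), IVL (involucrin) and the late cornified envelope family, was at 58.0% ± 0.324 already in conventional cells and at 12.5% ± 0.578 in reset cells.

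Bodies of autosomal genes annotated as protein-coding were tested where solitary and neighboured CpGs each had at least 100 calls in every library. Among 6120 genes the solitary level fell in all, 100% of those tested (limma, adjusted p under 0.05), and the median went from 90.001% in conventional to 32.7% in reset cells. KLF5 (chr13:73629114-73651679, plus strand), a zinc finger transcription factor of epithelia and the early embryo, had the lowest reset level. Its 27 solitary CpGs stood at 82.4%, 81.6% and 81.1% in conventional and at 3.52%, 5.04% and 3.76% in reset libraries, with adjusted p = 3.67e-11 in limma. Its neighboured CpGs also fell, from 52.0% to 6.17%. SI, the sucrase-isomaltase of the intestine, had 5.19% ± 1.49, the epidermal lipase LIPK 5.40% ± 1.59, the neuronal phospholipid phosphatase-related PLPPR4 5.65% ± 1.60, the G protein signalling regulator RGS21 5.83% ± 0.932, the neural protein BRINP3 5.89% ± 0.202 and DTHD1 6.08% ± 1.05, from conventional levels of 87.6% to 91.0%. Neighboured CpGs of these genes were low in reset cells as well, from 6.13% at RGS21 to 12.3% at LIPK. The olfactory receptor gene OR4M2 (5.88% ± 1.53) lies within the interval of LINC02203 and OR4M2-OT1, which share the same 77 solitary CpGs (5.998% ± 1.26), and this locus had only 55.5% ± 1.89 in conventional cells.

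The 10 genes with the highest reset level stood close to 50%. They were CHI3L2, a chitinase-like protein (51.9% ± 4.32), ABHD12, a lysophospholipid hydrolase (51.0% ± 4.17), SLAMF1, a receptor of immune cells (51.0% ± 3.21), EPN2, an endocytic adaptor (50.8% ± 3.85), the zinc finger genes ZNF569 (50.5% ± 2.45) and ZNF695 (50.2% ± 5.72), the transcription cofactor LBH (50.3% ± 2.92), MRAP2, an accessory protein of melanocortin receptors (50.2% ± 3.24), PLAC8 (50.2% ± 7.29) and the nuclear receptor PPARD (50.2% ± 5.37). Their conventional levels were 88.2% to 93.9%. These genes carried 32 to 49 solitary CpGs each, and levels next to each other in this order differed by less than their SDs. At CHI3L2 the reset libraries ranged from 48.9% to 56.8%, and the neighboured CpGs stood at 51.5% ± 0.984. Over the 10 genes the neighboured reset levels ran from 31.6% at ZNF569 to 52.0% at SLAMF1.

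Genes of neural adhesion and synapses stood lower in reset cells than housekeeping genes. The genes differed in length as well, with 312 to 2305 kb (292 to 2246 solitary CpGs) in the neural and 54.97 to 814 kb (27 to 681 solitary CpGs) in the housekeeping list. The CpG density of the lists was not compared, although bins poor in CpGs stood lowest in reset cells, as given above. The parts of length and of CpG density in the difference were not tested. The lists were chosen with earlier results of these data known and are described by their counts and medians. All 31 neural genes were tested, and all fell. Their median reset level was 16.4%, 17.5% and 17.4% in the libraries, below the lower quartile of all genes tested (25.6%). CDH12, a cadherin (chr5:21750782-22853453), was lowest at 7.79%, 8.93% and 8.66% over 1113 solitary CpGs, followed by the glutamate receptor genes GRM7 (10.5% ± 0.534) and GRM8 (11.5% ± 0.372). The highest of the list was CNTNAP5, a member of the neurexin family, at 26.4% ± 0.568. Of 31 housekeeping genes 28 were tested, and all fell. Their median reset level was 33.6%, 34.8% and 35.1% in the libraries, from SPEN, a transcriptional corepressor (28.0% ± 0.521), to HERC2, a ubiquitin ligase (41.8% ± 4.53). The reset levels of the lists did not overlap. The DNA damage kinase ATM stood at 37.5% ± 0.961 and the Ras regulator NF1 at 35.5% ± 2.08. In conventional cells the list medians were 89.98% and 92.5%. At neighboured CpGs of the same genes the reset medians were 21.3% and 35.9%.

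Of 29 listed genes of pluripotency and of the methylation machinery, 6 had enough calls to be tested, and 23, among them NANOG, POU5F1, SOX2 and DNMT1, did not. All 6 fell. KLF5 was described above. ESRRB, an orphan nuclear receptor, stood at 27.4% ± 3.74 in reset cells, and LIN28B, an RNA-binding protein that blocks let-7 maturation, at 36.2% ± 3.38. The genes of the methylcytosine dioxygenases TET1, TET2 and TET3 had 31.8% ± 1.78, 31.9% ± 3.57 and 38.7% ± 5.03, and their conventional levels were 94.4% ± 0.755, 85.7% ± 1.95 and 91.8% ± 2.93.

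**Figure D5:**
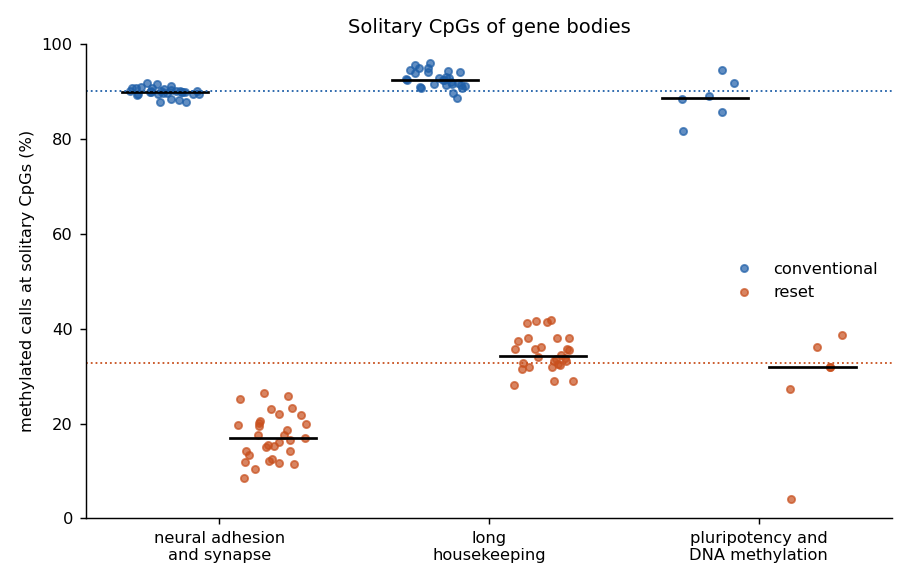
Level of solitary CpGs in gene bodies for the 3 gene lists, with 1 point per gene (mean of 3 libraries) in conventional (blue) and reset (orange) cells; black bars are list medians and dotted lines the medians of all 6120 genes. Conventional medians lie between 88.7% and 92.5%, and reset medians are 16.99% for the neural, 34.3% for the housekeeping and 31.9% for the pluripotency and methylation list.

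The difference between solitary and neighboured CpGs was also tested gene by gene. It went down in 3622 of 6120 genes (59.2% of genes tested) and up in 63 (1.03%), by limma with adjusted p under 0.05. The count that went up was 38, 38 and 35 without conventional replicates 1, 2 and 3. It was 31 with at least 200 calls of each kind in every library, where fewer genes were tested. The 5 genes with the largest change downwards had neighboured levels of only 24.1% to 51.5% in conventional cells, and ZIC1, TBX15, TFAP2D and SKOR2 among them encode developmental regulators of transcription. At ZIC1, a zinc finger factor of the neural crest and cerebellum (chr3:147111209-147228080), solitary CpGs went from 84.7% ± 0.832 to 14.3% ± 0.868 and neighboured CpGs from 34.0% to 22.9%, so the difference changed by -59.4 points (SE 1.84, adjusted p = 7e-06, limma). The corresponding changes were -57.6 points (SE 2.97) at SFTA3, a gene beside NKX2-1, -56.8 (SE 2.20) at the T-box gene TBX15, -50.4 (SE 2.45) at TFAP2D and -49.2 (SE 2.89) at SKOR2. All list members that passed this test went down, with 23 of 31 neural, 14 of 28 housekeeping and 4 of 6 pluripotency and methylation genes. In the other direction stood the zinc finger genes ZNF595 (29.3 points, SE 1.06), ZNF208 (27.6, SE 1.66), ZNF736 (25.2, SE 2.64) and ZNF98 (15.2, SE 1.88) and the scavenger receptor family gene SCART1 (15.3, SE 4.34). At ZNF208 (chr19:22115760-22193751) solitary CpGs stood at 63.1%, 57.6% and 61.5% in conventional and at 41.9%, 46.7% and 47.9% in reset libraries, while neighboured CpGs went from 73.3% to 30.5%. Genes named ZNF with a number made up 9 of the 63 genes that went up, 14.3%, against 1.81% of all genes tested and 1.22% of those that went down, a count made after the names had been seen. Chromosome 19 held 11 of the 63, 71 of all 6120 and 21 of the 3622. Such genes share sequence with relatives, and how the aligner placed reads among near-identical copies was not tested. Across 1-Mb bins the difference went down in 2548 (94.2% of 2705) and up in 60 (2.22%).

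These counts depended on which neighboured CpGs were used. Against neighboured CpGs with at most 5 CpGs in 1000 bp, 4877 genes could be tested, of which 1 went down and 0 went up by limma with adjusted p under 0.05 (338 down and 542 up at an unadjusted p under 0.05), and the median change was 0.450 points. Of 2640 bins, 20 went down and 298 went up, with a median change of 0.836 points. The limit on density again held for the neighboured CpGs and not for the solitary ones. At ZIC1 the change against such CpGs was 3.67 points (adjusted p = 0.30, limma), at TBX15 1.19 (adjusted p = 0.78) and at TFAP2D 0.679 (adjusted p = 0.86). SKOR2 changed by -5.62 points (adjusted p = 0.37), and SFTA3 had too few such calls to be tested. The 5 genes named above for a change upwards no longer passed the test either, with changes of 4.71 points at ZNF595, 2.87 at ZNF208, 4.66 at ZNF736, -1.86 at ZNF98 and 18.2 at SCART1 and adjusted p (limma) from 0.096 to 0.73. At SCART1 the change was thus no smaller than before, although the call was lost.

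Tested singly, most solitary CpGs fell. A total of 43354 had at least 5 calls in every library, and 40969 of them (94.5%) were lower in reset cells by a quasi-binomial test with Benjamini-Hochberg adjustment at 0.05, against 92.6% of all 190170 CpGs tested, solitary and neighboured. A rise was called at 24 (0.0554%), against 0.150% of all CpGs tested, and at 15 when the calls of each state were summed and compared by Fisher's exact test. Most CpGs were called, so the adjustment changed little, and 26 solitary CpGs rose at an unadjusted p under 0.05 in the quasi-binomial test. In simulated data where all but 200 CpGs fell, 2.0% of the unchanged ones were called. The rises called here may therefore hold false calls. The share that fell was 94.2% at 150-300 bp, 95.03% at 300-500 bp and 95.9% at over 500 bp. Of the 41017 with a conventional level of at least 50%, 493 kept at least 80% of it, against 2366 of 175198 among all CpGs tested. Read per library, at solitary CpGs with 10 to 30 calls, 80.7% ± 0.624 of CpGs were above 80% methylated in conventional libraries and 0.717% ± 0.0530 in reset libraries. These were 91452 to 112990 CpGs per conventional and 11309 to 22578 per reset library, so the states were read over different sets. Such CpGs have more calls than most, and counting error at this depth adds to the spread of their levels. In reset libraries 46.3% ± 1.45 were below 20% and 53.0% ± 1.41 between 20% and 80%. Neighboured CpGs gave similar shares in reset libraries, with 44.1% ± 1.39 below 20% and 54.97% ± 1.36 between 20% and 80%. The share below 20% was 55.7% ± 1.48 at over 500 bp.

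The CpGs printed at the start give the range of single positions. At chr10:131756313, in an intron of EBF3 (a transcription factor of neurons), 0 of 7, 1 of 8 and 2 of 12 calls were methylated in conventional libraries and 3 of 5, 4 of 7 and 3 of 5 in reset libraries, for pooled levels of 11.1% (95% exact binomial interval 2.35% to 29.2%) and 58.8% (32.9% to 81.6%), with adjusted p = 8.8e-04 in the quasi-binomial test. The CpG at chr4:190554874 is intergenic and went from 5 of 29 to 20 of 31 pooled calls (adjusted p = 2e-04). At chr7:70938034, in an intron of the glycosyltransferase gene GALNT17, 0 of 24 calls were methylated in conventional cells, which allows a level of up to 12.5% by the rule of 3 calls over the total (exact upper bound 14.2%), and 10 of 22 in reset cells. The intergenic CpG chr7:155169652 had 1 of 27 and 10 of 21, and chr17:37845666, in introns of the overlapping genes PGAP3 and ERBB2, 0 of 16 and 9 of 22. Among falls, chr1:144895855 in an intron of PDE4DIP (a centrosome and Golgi protein) had 33 of 33 calls methylated in conventional and 0 of 25 in reset cells, and the intergenic chr2:67244897 had 31 of 31 and 0 of 23, where the latter allows a reset level of up to 13.04% by the same rule (exact upper bound 14.8%). Of the solitary CpGs tested with at most 30 calls in any library, 521 of 43067 (1.21%) went from 100% to 0, against 1902 of 185369 (1.03%) of all CpGs. The CpGs tested with the greatest distances to any other CpG seen had few calls around them rather than few CpGs. The nearest seen CpG of chr1:108784075, in an intron of NBPF4, lay at 5057 bp but the nearest in the reference at 127 bp, and the distances of chr9:40421797 were 3499 and 159 bp. The level of chr1:108784075 went from 26 of 28 to 7 of 22 methylated calls. With distances taken from the reference for all CpGs, the difference between CpGs over 500 bp and 150-300 bp apart changed by -5.39, against -5.04 with CpGs seen. Intervals and limits cover counting error only, since reads can be copies of 1 molecule.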

How the data were processed

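DNA methylation was measured in 6 whole-genome bisulfite libraries of H9 cells. Per the labels and the study's methods, the authors trimmed reads with Trim Galore, aligned them to GRCh37 with Bismark (0.9.0 in the submitters' processing notes) and Bowtie 2, and deposited counts of methylated and unmethylated calls per cytosine, with the percent methylated; removal of duplicates is not given in the sources used here. The deposited percent column was not used. Calls of both strands were merged per CpG. Pooled levels were compared by exact permutation tests with unadjusted p, single CpGs with at least 5 calls in every library by a quasi-binomial test (R 4.3.3), and genes annotated as protein-coding (GENCODE v44lift37) and 1-Mb bins by limma 3.58.1, the last 3 with Benjamini-Hochberg adjustment. In the quasi-binomial test the raw dispersion of each CpG was floored at 0.25, a value set on simulated data. The dispersion was then moderated across CpGs and kept at 1 or more in the test itself. The tests were tried on simulated data: 100% of 200 single CpGs lowered by 80 points and 47.5% of genes with a difference moved by 10 points were recovered, with 0.00263% and 0.0169% of unchanged features called. Where all but 200 CpGs were lowered to 30% of the conventional level, 2.0% of the unchanged ones were called. The simulated calls were binomial, with no variation between libraries beyond counting, and the dispersion floor was set on such data. The rates therefore need not hold for the real libraries. Named genes were the 10 lowest and 10 highest reset levels, the 5 largest changes of the difference each way and the listed genes; named CpGs were the 5 largest rises, falls and distances. Members and lists were chosen with earlier results of these data known. Alternatives covered minimum calls, reference neighbours, weighting by CpG, other tests and leaving out each library.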

Additional observations from a re-analysis of the deposited data

How the results depend on the processing

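The fall of the solitary level, its differences by distance class, by gene body and by flanking bases kept their directions under the alternatives run, and leaving out each library in turn gave -64.2 to -63.7 points for the fall, 2.61 to 2.72 for gene body and -5.58 to -5.48 for flanking bases. The difference between solitary and neighboured CpGs (-10.6, and -10.7 to -10.5 without single libraries) reversed to 1.71 against neighboured CpGs with at most 5 CpGs in 1000 bp (solitary CpGs not limited) and was -5.24 among CpGs with at least 3 calls in every library. Against the same sparse neighbours, an alternative added for genes and bins after seeing the data, 1 gene went down and 0 went up by limma, 20 bins went down and 298 went up, and the changes at ZIC1 (3.67), TBX15 (1.19), TFAP2D (0.679) and ZNF98 (-1.86) had the other sign without passing the test (adjusted p in limma from 0.30 to 0.86). With at least 8 calls in every library, 1326 single solitary CpGs were lower and 4 higher, since fewer were tested, and testing the summed calls of each state by Fisher's exact test gave 15 higher. With at least 200 calls, 3808 genes were lower in level and 31 went up in the difference. Fewer genes were tested at this limit, so these counts cannot be set directly against those at 100 calls. With the usual minimum of 100 calls, 63 genes went up, and this count was 38, 38 and 35 without conventional replicates 1, 2 and 3, and 35 to 66 over all libraries left out; the cause was not tested. Libraries with the same replicate number did not deviate together (correlation of deviations -0.0353 to 0.0193 for the same number and -0.0586 to 0.0639 for different numbers). These correlations cannot show whether such libraries were cultured or handled in pairs. A replicate block left the pooled changes at -64.0 and -10.6 (exact sign-flip test, p = 0.25, the smallest it can give), and gave 40716 single CpGs lower and 17 higher, 3411 genes down and 55 up, and 2543 bins down and 62 up. Depth limited the single CpGs: 43354 of 1995316 solitary CpGs could be tested.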
